A study of Mus musculus with 8 samples.

Results

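Transthyretin (Ttr), the retinol-binding protein Rbp4 and 7 genes of retinoid uptake and metabolism (Crabp2, Stra6, Rdh10, Dhrs3, Aldh1a1, Aldh1a2 and Aldh1a3) were followed in AML12 cells, an established hepatocyte line whose donor mouse was transgenic for human TGF-alpha. The 9 genes were taken by symbol from the 34945 named genes of the table, and all 9 were found. Poly-A RNA of 4 cultures given a scrambled control siRNA (Scr, genotype labelled WT) was compared with that of 4 cultures given Casp8 siRNAs (siCasp8, genotype labelled Casp8 knockdown), each at 40 nM for 48 hours in the same serum-containing medium. Levels are normalized values per gene as the authors deposited them. Group values are mean ± SD with n = 4 libraries, and a test was made for genes with a mean of at least 10 over the 8 libraries, which 6 of the 9 genes reached.

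Retinol, the alcohol form of vitamin A, leaves hepatocytes bound to Rbp4, and in plasma Rbp4 is held in turn by Ttr, which also carries thyroxine. Target cells take retinol from Rbp4 through the membrane receptor Stra6, and retinol dehydrogenases such as Rdh10 oxidise it to retinaldehyde. Dhrs3 runs the opposite reaction, Aldh1a enzymes oxidise retinaldehyde to retinoic acid, and Crabp2 carries retinoic acid to nuclear receptors of the RAR and RXR families. In liver the stores of retinyl ester lie mainly in stellate cells, which form them with the acyltransferase Lrat.

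Both plasma carriers rose after Casp8 silencing, while the receptor Stra6 fell, as did Rdh10 and Dhrs3, the chosen genes that link retinol and retinaldehyde. Other retinol dehydrogenase genes, given further below, rose or were not called. Ttr rose 2.75-fold and Rbp4 2.00-fold in mean value. Stra6 was left at 73.7% of its Scr level, Rdh10 at 58.6% and Dhrs3 at 58.2%. Aldh1a1 was left at 91.7%, a small fall that depended on how libraries were scaled. Crabp2, Aldh1a2 and Aldh1a3 had mean values under 10 and were not tested.

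All 6 tested genes were called by limma at an adjusted p under 0.05, 2 higher and 4 lower, and none of the 6 overlapped between the groups. Across the 14154 tested genes 40.2% were called, 19.4% higher and 20.8% lower, and 37.5% did not overlap between the groups, 18% with siCasp8 higher and 19.5% with it lower, so a call alone is common in these libraries. The median log2 fold change was -0.28 over the 6 genes and 0.00252 over all tested genes. Equalizing the upper quartile of the libraries put that median at 0.10 and gave 4471 genes called higher and 1665 lower in place of 2739 and 2950. With estimated depth as a covariate 2764 genes (19.5%) were called in place of 5689, 9.11% higher and 10.4% lower, and of the 6 genes 2 were called higher and 3 lower. Whether replicates are separate cultures rests on the series' design text, which calls them biological replicates.

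The targeted gene Casp8 was at 3936, 3995, 4134 and 3825 in Scr replicates 1 to 4 and at 1374, 1431, 1627 and 1490 in siCasp8 replicates 1 to 4. The library labels therefore matched the level of their target. Estimated depth ranged from 30.7 to 51.8 M reads in Scr and from 50.5 to 57.1 M in siCasp8, and its part in the results was not tested beyond the covariate fit. Of 12 hepatocyte markers 8 were tested, 4 of them higher and 1 lower, and the summed list ranged from 39763 to 43575 in Scr and from 46190 to 49563 in siCasp8. That list includes Ttr. Without Ttr, 3 of 7 tested markers were higher and 1 lower, and the sums overlapped, at 37502 to 40919 in Scr and 39380 to 42808 in siCasp8. Most of that sum was Apob, the 1 lower marker, which fell from 26046 ± 1567 to 21951 ± 1579. The 3 higher markers were Alb (86.4 ± 10.7 to 3626 ± 249), Serpina1a (5736 ± 262 to 8020 ± 452) and Fgb (10.2 ± 4.92 to 60.5 ± 9.99). The hepatocyte markers Cps1 and Cyp2e1 were near 0, with means of 0.963 and 1.20 in Scr. Apob, Hnf4a and Serpina1a were high, with means of 26046, 6535 and 5736 in Scr. The labelled cell type was therefore only partly reflected in its defining genes. Of 9 cholangiocyte markers 8 were tested (2 higher, 4 lower), and their summed level was 118406 to 126964 in Scr and 131114 to 138612 in siCasp8, most of it Spp1 (89795 ± 3642 and 104055 ± 3658). Of 12 stellate cell markers 10 had a mean under 10, Hgf was listed at 0 in every library, and Lrat did not exceed 5.14. The summed stellate list was 126 to 176 in Scr and 110 to 186 in siCasp8, and Col1a1 and Des were its highest members. Among macrophage markers 5 of 9 were listed at 0 in every library, and Csf1r and Ptprc led a sum of 780 to 848 in Scr and 578 to 654 in siCasp8. Among endothelial markers 2 of 8 were at 0 in every library, and Flt4 and Pecam1 led a sum of 848 to 1344 in Scr and 795 to 902 in siCasp8. All 8 libraries are labelled as the AML12 line alone, so these lists give marker levels in cultures of that line. In such a bulk sample a change in every cell and a change in some cells cannot be told apart.

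Sequences upstream of the annotated starts are shown first for 3 genes that moved in opposite directions and then for 2 retinoic acid target genes, because retinoic acid receptors are known to act through paired half-sites near such starts. RefSeq promoter windows on GRCm38.p6 were at hand for 5 of the 9 genes (Rbp4, Stra6, Dhrs3, Aldh1a1 and Aldh1a2), with 12 starts in all. The 250 bases before each start were searched on both strands for 4 half-sites (AGGTCA, its variant AGTTCA, the further variant GGGTCA and the variant with the letters GGTTCA) and for DR5, a direct repeat of any of these with a spacer of 5 bases. Capitals mark a TATAAA box on the gene's strand or a half-site, and each window is written 5′ to 3′ on the gene's strand.
Rbp4, chr19:38124829-38124948, minus strand, bases -137 to -18 from the start: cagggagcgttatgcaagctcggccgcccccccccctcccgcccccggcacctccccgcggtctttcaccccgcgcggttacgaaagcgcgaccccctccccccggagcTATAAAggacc
Dhrs3, chr4:144892707-144892826, plus strand, bases -120 to -1: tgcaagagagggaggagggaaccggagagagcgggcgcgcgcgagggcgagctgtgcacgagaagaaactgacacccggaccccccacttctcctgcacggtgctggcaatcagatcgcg
Stra6, chr9:58128968-58129087, plus strand, bases -120 to -1: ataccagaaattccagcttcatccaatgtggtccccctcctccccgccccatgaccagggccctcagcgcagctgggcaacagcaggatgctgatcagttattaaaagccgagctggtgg
The Rbp4 window was placed by the TATAAA box of the 1 start that has it, so the box, which began at -28, was there by choice. The windows of Dhrs3 and Stra6 precede their most upstream start. None of the 3 windows held a half-site. Over the full 250 bases, 1 start of Rbp4 and 1 of Aldh1a1 held a half-site, among 12 starts of 5 genes. That start of Rbp4 is not the one shown. Over 32851 promoter windows of the same length the share was 38.6%. Windows of 1 gene can overlap, as those of Dhrs3 do, so the 12 starts are not independent, and a difference from that share was not tested. No start of the 5 genes held DR5, which was found in 29 of the 32851 windows, or 0.0883%.

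Of the 17 genes of the receptor and target list with a RefSeq window, Rarb and Cyp26a1 held DR5. Rarb encodes retinoic acid receptor beta, and Cyp26a1 encodes the hydroxylase that clears retinoic acid.
Rarb, chr14:16575513-16575529, minus strand, bases -53 to -37 from the start: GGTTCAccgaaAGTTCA
Cyp26a1, chr19:37697776-37697792, plus strand, bases -32 to -16, with the repeat on the opposite strand: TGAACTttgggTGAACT
The capitals are the half-sites. The Rarb site overlaps exons annotated in GENCODE M21, and the Cyp26a1 site does not. Both genes were low in these cells. Rarb stood at 61.3, 39.1, 46.6 and 34.5 in Scr replicates 1 to 4 and at 12.7, 19.9, 26 and 17.0 in siCasp8 replicates 1 to 4. The groups did not overlap, and Rarb fell (log2 fold change -1.23, SE 0.267, limma adjusted p = 0.00276), a call lost with the depth covariate (-0.95, adjusted p = 0.148). Cyp26a1 was 19.3 ± 5.57 in Scr and 16.8 ± 4.82 in siCasp8, with overlapping groups (log2 fold change -0.19, 95% interval -0.85 to 0.48, limma adjusted p = 0.668).

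Ttr was at 2244, 2536, 2546 and 2656 in Scr replicates 1 to 4 and at 6755, 7114, 6811 and 6726 in siCasp8 replicates 1 to 4. The groups were far apart, and Scr replicate 1 was the lowest of the 8. The means were 2495 ± 176 and 6852 ± 178 (SD, n = 4 each). The log2 fold change was 1.46 (SE 0.0495, 95% interval 1.35 to 1.57, limma adjusted p = 3.91e-09), at percentile 99.1 of all tested genes. Ttr (ENSMUSG00000061808.4) is at chr18:20665280-20674321 (plus strand), on GRCm38, where GENCODE M21 lists 1 transcript of 4 exons and 1186 bases.

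Rbp4 was at 6231, 6122, 5800 and 5853 in Scr and at 12702, 11977, 11688 and 11540 in siCasp8, again with no overlap. The means were 6002 ± 208 and 11977 ± 516, and the log2 fold change was 1.00 (SE 0.0395, 95% interval 0.91 to 1.08, limma adjusted p = 8.44e-09). Rbp4 (ENSMUSG00000024990.13) is at chr19:38116629-38125281 (minus strand), with 4 coding transcripts of up to 1161 bases.

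**Figure D1:**
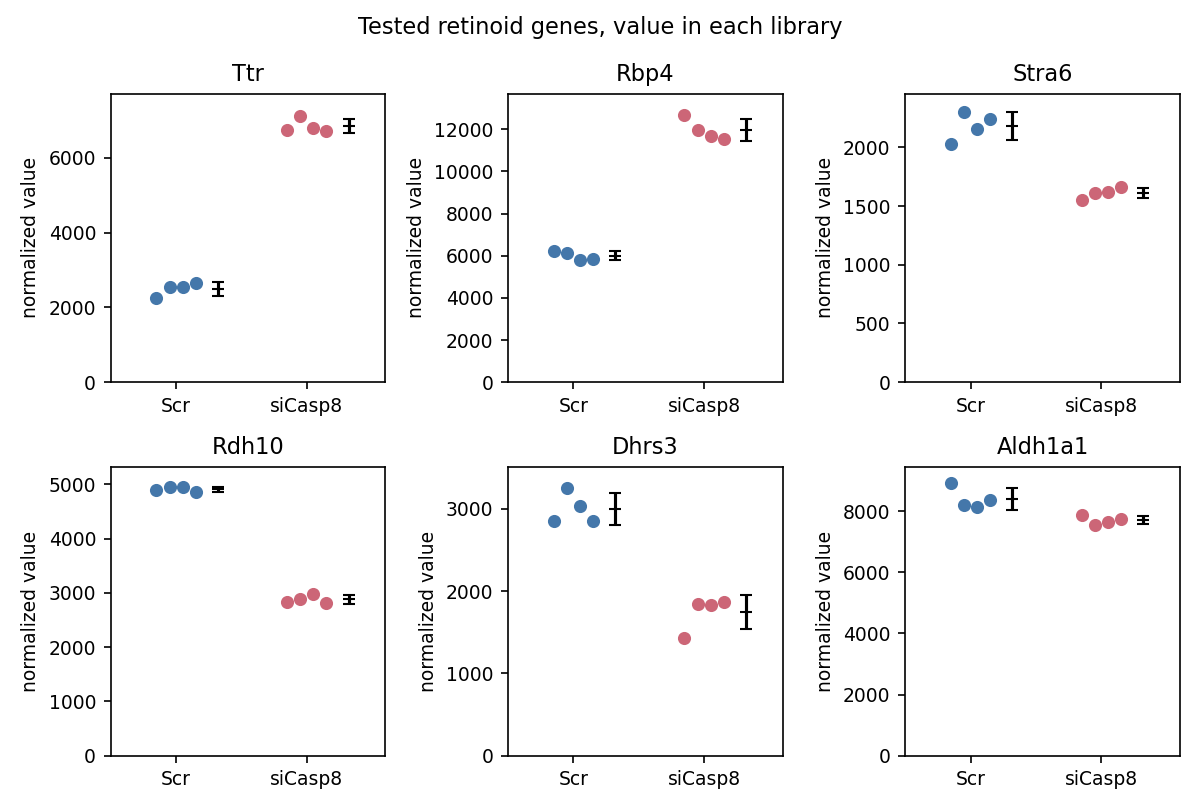
Normalized value (y axis, from 0) of the 6 tested genes in each Scr and siCasp8 library; points are libraries in order of replicate number, and the bar beside them is mean ± SD, n = 4. Ttr and Rbp4 are higher in every siCasp8 library than in any Scr library, and Stra6, Rdh10, Dhrs3 and Aldh1a1 are lower.

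The rise of Ttr was larger than that of Rbp4. Within a library, where scaling between libraries cancels, the Ttr value was 0.360, 0.414, 0.439 and 0.454 of the Rbp4 value in Scr replicates 1 to 4 and 0.532, 0.594, 0.583 and 0.583 in siCasp8 replicates 1 to 4. These ranges did not overlap, and the log2 ratio was higher by 0.46 in siCasp8. With 70 ways to divide the libraries, the exact permutation test (two-sided) gave p = 0.0286, the smallest it can give. Adjusted over the 3 ratios computed the p was 0.0857 (exact permutation). That is the smallest adjusted p that 1 ratio can reach when the others are not also low, so it could not pass 0.05 alone. The others had unadjusted p of 0.943 and 0.886 (exact permutation). Without Scr replicate 1, the lowest library, the difference was 0.39.

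Stra6, the receptor that brings retinol into cells, was at 2028, 2303, 2160 and 2239 in Scr and at 1553, 1608, 1617 and 1659 in siCasp8. The highest siCasp8 library was below the lowest Scr library. The means were 2183 ± 119 and 1609 ± 43.4 (log2 fold change -0.44, SE 0.0477, 95% interval -0.54 to -0.33, limma adjusted p = 1.55e-05). Stra6 (ENSMUSG00000032327.14) spans chr9:58063788-58153996 (plus strand), with 13 coding transcripts of 398 to 3077 bases. In that annotation it overlaps the coding gene Ccdc33 on the opposite strand and Gm16131, annotated as antisense, on its own strand, and with the authors' use of strand not stated in these sources, reads of these genes may not be fully told apart.

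Rdh10, the dehydrogenase that forms retinaldehyde from retinol, had the smallest standard error of the 6 tested genes. It was at 4899, 4946, 4949 and 4850 in Scr and at 2836, 2889, 2986 and 2805 in siCasp8. Its means were 4911 ± 46.3 and 2879 ± 79.1 (log2 fold change -0.77, SE 0.0344, 95% interval -0.85 to -0.70, limma adjusted p = 1.63e-08). Rdh10 (ENSMUSG00000025921.7) is at chr1:16105774-16133734 (plus strand).

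Dhrs3, the reductase that returns retinaldehyde to retinol, was at 2849, 3252, 3037 and 2854 in Scr and at 1431, 1844, 1834 and 1868 in siCasp8. The groups did not overlap, and siCasp8 replicate 1 lay apart from the other 3 siCasp8 libraries. The means were 2998 ± 190 and 1744 ± 209 (log2 fold change -0.79, SE 0.0801, 95% interval -0.96 to -0.61, limma adjusted p = 8.75e-06). Without siCasp8 replicate 1 the log2 fold change was -0.70 (limma adjusted p = 3.77e-06). Dhrs3 (ENSMUSG00000066026.14) is at chr4:144892827-144928209 (plus strand).

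The fall of Rdh10 and that of Dhrs3 were close in size. The Rdh10 value was 1.72, 1.52, 1.63 and 1.70 times the Dhrs3 value in Scr replicates 1 to 4 and 1.98, 1.57, 1.63 and 1.50 times in siCasp8 replicates 1 to 4. The siCasp8 range enclosed the Scr range. The mean log2 ratio was 0.71 ± 0.0801 in Scr and 0.73 ± 0.177 in siCasp8, a difference of 0.02 (exact two-sided permutation p = 0.943 before and after adjustment over the 3 ratios). The difference was -0.07 without siCasp8 replicate 1 and -0.02 without Scr replicate 2, so its sign turned when either library was left out.

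**Figure D2:**
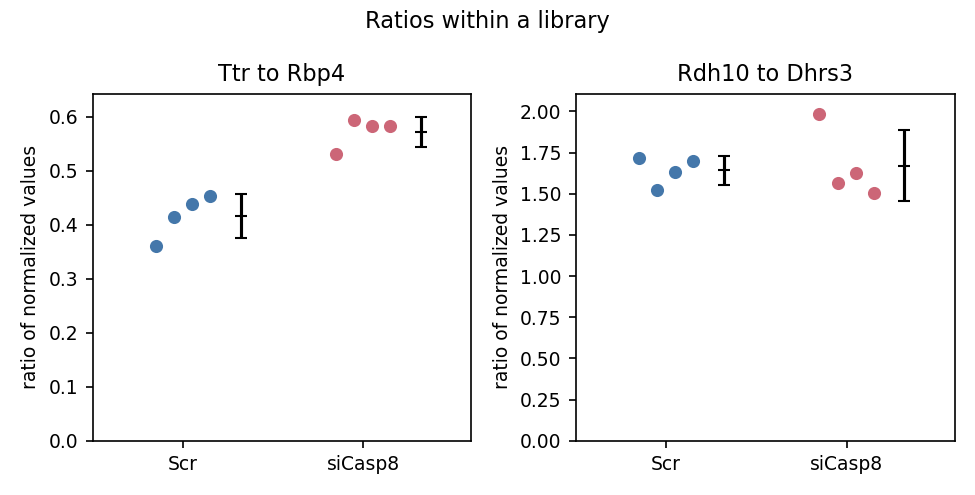
Ratio of normalized values within each library (y axis, from 0, no unit) for Ttr to Rbp4 and for Rdh10 to Dhrs3 in Scr and siCasp8; points are libraries in order of replicate number, and the bar is mean ± SD, n = 4. The Ttr to Rbp4 ratio is 0.360 to 0.454 in Scr and 0.532 to 0.594 in siCasp8, while the Rdh10 to Dhrs3 ratios of the groups overlap.

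Aldh1a1 carried nearly all of the retinaldehyde dehydrogenase signal of this family. It was at 8929, 8217, 8133 and 8356 in Scr and at 7890, 7557, 7640 and 7759 in siCasp8. The groups did not overlap, but the gap between them was smaller than the SD within Scr. The means were 8409 ± 359 and 7712 ± 145 (log2 fold change -0.12, SE 0.0366, 95% interval -0.20 to -0.04, limma adjusted p = 0.0170). This call was lost after rescaling to a common total (-0.09, adjusted p = 0.0692) or upper quartile (-0.02, adjusted p = 0.681), under quantile normalization (-0.06, adjusted p = 0.209), with the depth covariate (-0.09, adjusted p = 0.309) and without siCasp8 replicate 2 (-0.11, adjusted p = 0.0566). Aldh1a1 (ENSMUSG00000053279.8) is at chr19:20492715-20643465 (plus strand), where the processed transcript C730002L08Rik and the pseudogene Gm6684 overlap it on the other strand.

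Aldh1a2, the form best known from the embryo, was listed at 0 in all 4 Scr libraries and in siCasp8 replicate 4, and at 0.878, 0.783 and 3.42 in siCasp8 replicates 1 to 3. At an estimated 0.773 to 1.47 units for 1 read, these are values of at most 3.99 reads. Aldh1a3 was at 7.55, 5.29, 6.21 and 8.23 in Scr and at 10.2, 0.822, 8.07 and 2.30 in siCasp8, so the siCasp8 libraries lay on both sides of the Scr range. Aldh1a1 made up 99.9% ± 0.0143 of the summed values of the 3 genes in Scr and 99.9% ± 0.0692 in siCasp8 (exact two-sided permutation p = 0.886, 0.943 adjusted over the 3 ratios). Aldh1a2 (ENSMUSG00000013584.5) is at chr9:71215789-71296243 (plus strand), and Aldh1a3 (ENSMUSG00000015134.15) at chr7:66390890-66427517 (minus strand).

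Crabp2, the carrier that hands retinoic acid to its receptors, was at 2.87, 5.91, 2.35 and 6.97 in Scr and at 6.19, 4.69, 1.70 and 7.06 in siCasp8. The groups overlapped almost completely. In a fit without the filter on low values, none of Crabp2, Aldh1a2 and Aldh1a3 was called, with limma adjusted p of 0.924, 0.121 and 0.486. Their 95% intervals for the log2 fold change, not adjusted, were from -0.93 to 1.09, from 0.07 to 1.88 and from -1.82 to 0.54. Only that of Aldh1a2 left out 0. Crabp2 (ENSMUSG00000004885.5) is at chr3:87948666-87953376 (plus strand).

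**Figure D3:**
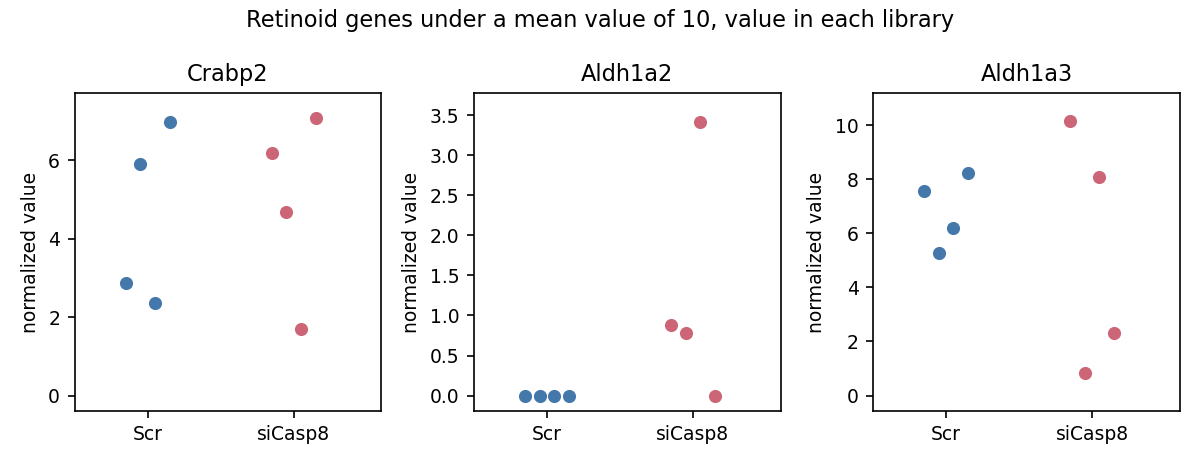
Normalized value (y axis) of the 3 genes with a mean under 10 in each Scr and siCasp8 library; points are libraries in order of replicate number. Aldh1a2 is listed at 0 in all 4 Scr libraries, and the siCasp8 values of Crabp2 and Aldh1a3 fall on both sides of the Scr values.

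**Figure D4:**
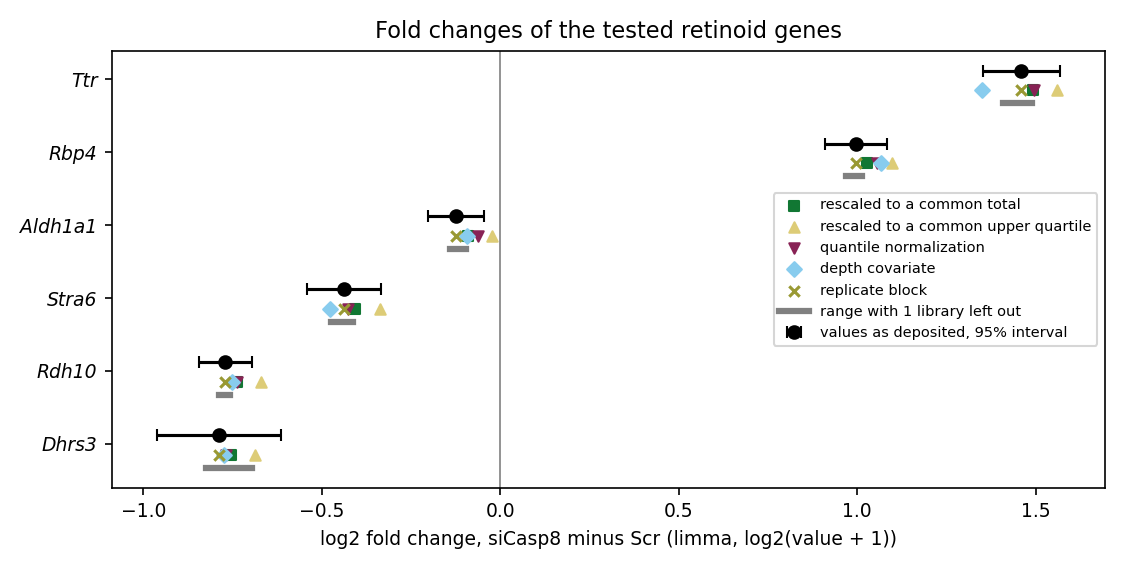
Log2 fold change of the 6 tested genes (x axis, siCasp8 minus Scr, limma on log2(value + 1)); black points are the values as deposited with their 95% interval, coloured points the fits with other scaling, a depth covariate or a replicate block, and grey bars the range when 1 library is left out. Ttr and Rbp4 stay at 0.97 or above and Rdh10 and Dhrs3 at -0.67 or below in the fits shown, while Aldh1a1 approaches 0.

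The ratios above use values without a length correction and were compared only between groups. To set levels of different genes side by side, values were taken per kilobase of transcript. With the longest coding transcript as length, Scr values per kilobase were 5169 ± 179 for Rbp4, 3566 ± 152 for Aldh1a1, 2104 ± 148 for Ttr, 1369 ± 12.9 for Rdh10, 1283 ± 81.5 for Dhrs3 and 709 ± 38.5 for Stra6. With these lengths the ranges of Rdh10 and Dhrs3 over the Scr libraries overlapped, and a difference between these genes was not tested. In siCasp8 the levels per kilobase were 10316 ± 445 for Rbp4, 5777 ± 150 for Ttr, 3270 ± 61.5 for Aldh1a1, 803 ± 22.1 for Rdh10, 746 ± 89.5 for Dhrs3 and 523 ± 14.1 for Stra6. Ttr thus stood below Aldh1a1 in Scr and above it in siCasp8. Crabp2, Aldh1a3 and Aldh1a2 had at most 5.27 per kilobase in either group. With the median coding length, Scr values per kilobase were 3065 ± 167 for Stra6 (rank 3), 2329 ± 148 for Dhrs3 (rank 4), 2104 ± 148 for Ttr (rank 5) and 1369 ± 12.9 for Rdh10 (rank 6). The places of these 4 genes in Scr therefore depended on the transcript taken, while Rbp4 and Aldh1a1 kept ranks 1 and 2.

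Among other genes of retinoid storage, uptake and turnover, 28 of 41 listed genes were tested, with 9 higher, 2 lower and 17 not called, and a median log2 fold change of 0.14. The 11 called genes are 39.3% of those tested, near the 40.2% over all tested genes, and the split by direction was not tested. With quantile normalization 6 were higher and 2 lower (median 0.05), and with the upper quartile equalized 12 and 2 (median 0.24). With the depth covariate 5 were higher and 1 lower, 21.4% of the list against 19.5% of all tested genes. Dhrs7, a short-chain dehydrogenase, rose from 539 ± 17.0 to 726 ± 38.2 (0.43, limma adjusted p = 0.000139), and Rbp2, a cellular retinol-binding protein best known from the intestine, rose from 126 ± 11.5 to 212 ± 21.2 (0.74, adjusted p = 0.000219). Retsat, which saturates a double bond of retinol, rose from 2074 ± 122 to 2488 ± 47.0 (0.26, limma adjusted p = 0.00068). Fabp5, a fatty acid carrier that can also bind retinoic acid, fell from 1665 ± 55.3 to 1035 ± 82.7 (-0.69, limma adjusted p = 2.42e-06). Cubn, an endocytic receptor of the proximal tubule and gut, fell from 116 ± 16.9 to 81.7 ± 8.76 (-0.50, limma adjusted p = 0.015), a call lost with the depth covariate (adjusted p = 0.0582). Among retinol dehydrogenase genes, Rdh1 rose from 32 ± 10.7 to 55.5 ± 6.68 (0.83, limma adjusted p = 0.0177), Rdh9 from 45.8 ± 15.6 to 78.4 ± 20.7 (0.79, adjusted p = 0.0373) and Dhrs9 from 65.7 ± 16.7 to 97.6 ± 7.96 (0.59, adjusted p = 0.0189). The groups overlapped for Rdh9 and Dhrs9. Rdh11, Rdh13, Rdh14 and Rdh16 were not called (log2 fold changes 0.02, 0.04, 0.06 and 0.17). The carotenoid-cleaving enzyme gene Bco2 rose from 36.5 ± 8.07 to 70.3 ± 3.26 (0.95), and the alcohol dehydrogenase gene Adh5 rose by 0.12. Dhrs7, Rbp2 and Retsat were among the 5 genes called higher with the depth covariate. Most of the other rises, those of Rdh1, Rdh9, Dhrs9, Bco2, Adh5 and Adh1 (below), therefore lost their call in that fit.

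Adh1 and Rdh7 were looked at after their values had been seen. Adh1, an alcohol dehydrogenase that can oxidise retinol, had the largest log2 fold change of the tested genes in that list, 1.92 (limma adjusted p = 0.00257). It was at 13.2, 9.01, 2.88 and 4.05 in Scr and at 29.9, 30.7, 25.3 and 21.1 in siCasp8. With means of 7.28 in Scr and 26.8 in siCasp8, Adh1 passed the filter on low values only through the group where it was higher. Its call, which is counted among the higher genes of the list, is limited by that. Rdh7 was not tested because of its low mean and was listed at 0, 0, 0 and 0.870 in Scr and at 9.66, 2.34, 11.1 and 5.44 in siCasp8. Genes of the Rdh1, Rdh7, Rdh9 and Rdh16 group and of the Adh group have close paralogs, so how the authors' estimates split reads among them is uncertain.

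Retinoic acid receptors and known retinoic acid targets went both ways. Of 24 genes 17 were tested, with 5 higher and 3 lower (7 higher and 2 lower after rescaling to a common total or upper quartile or under quantile normalization) and a median log2 fold change of 0.01. The 8 called genes are 47.1% of those tested, against 40.2% over all tested genes. With the depth covariate 6 were called, 5 higher and 1 lower, which is 35.3% against 19.5%. Among receptors, Rarg rose from 1486 ± 131 to 2091 ± 242 (0.49, limma adjusted p = 0.000526) and Rxra by 0.19, Rarb fell as described above, and Rara was at 2665 ± 238 and 2682 ± 144. The transcription factor genes Bhlhe40 and Meis2 rose from 2312 ± 163 to 3206 ± 89.7 (0.47) and from 767 ± 22.4 to 1078 ± 56.4 (0.49). The transglutaminase gene Tgm2 rose from 23090 ± 1421 to 28831 ± 779 (0.32). The corepressor gene Nrip1 fell from 2093 ± 72.9 to 1594 ± 141 (-0.40, limma adjusted p = 0.000254).

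Because Ttr also carries thyroxine, genes of thyroid hormone transport and response were counted. Of 19 listed genes 11 were tested, with 4 higher and 3 lower and a median log2 fold change of 0.18. The 7 called genes are 63.6% of those tested, against 40.2% over all tested genes, and with the depth covariate 4 (3 higher, 1 lower) are 36.4% against 19.5%. The albumin gene Alb, whose product is another thyroxine carrier, had the largest log2 fold change (5.38), and the transporter gene Slc16a10 rose from 406 ± 63.8 to 662 ± 59.1 (0.71, limma adjusted p = 0.000178). Hr, which encodes a corepressor of thyroid hormone receptors, rose from 885 ± 109 to 1262 ± 101 (0.51), and the receptor gene Thra rose from 3556 ± 206 to 4035 ± 111 (0.18). The malic enzyme gene Me1 fell from 30561 ± 1142 to 23348 ± 420 (-0.39), the amino acid transporter gene Slc7a5 from 1318 ± 85.6 to 1030 ± 55.4 (-0.35) and the receptor gene Thrb from 792 ± 82.9 to 626 ± 33.5 (-0.33). The calls of Slc7a5 and Thrb were lost with the depth covariate (limma adjusted p = 0.0594 and 0.157). That of Thra was lost in the same fit, where the 3 higher genes were Alb, Slc16a10 and Hr. Serpina7, which encodes thyroxine-binding globulin, was low at 15.4 ± 7.54 and 23.8 ± 9.12 and was not called (limma adjusted p = 0.202).

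**Figure D5:**
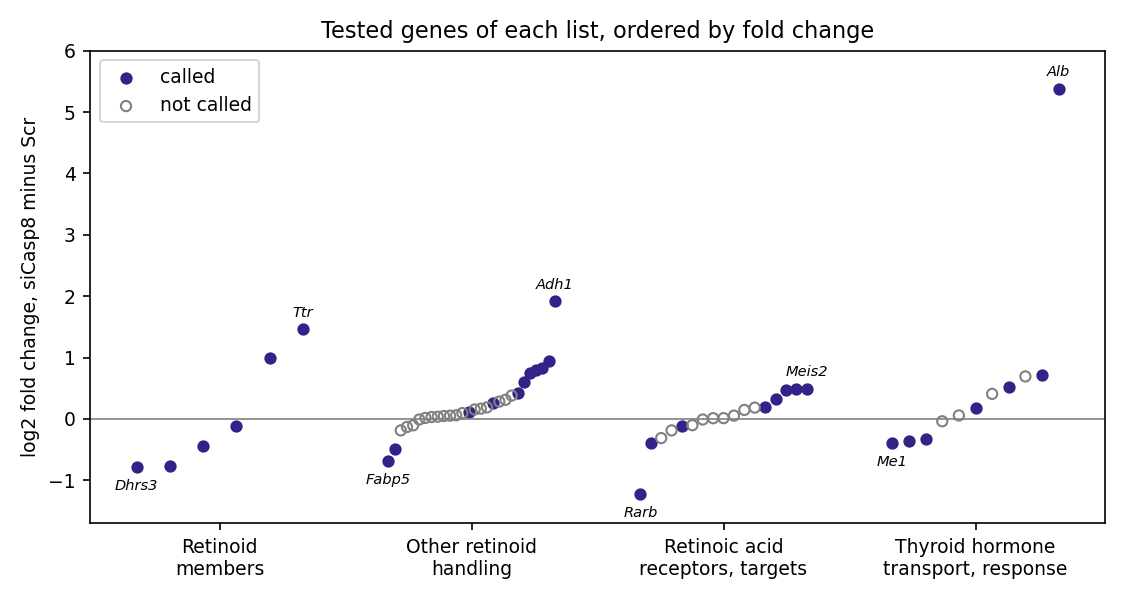
Log2 fold change (y axis, siCasp8 minus Scr) of each tested gene in the 4 lists, ordered within a list; filled points were called by limma at an adjusted p under 0.05 and open points were not, and the lowest and highest gene of each list are named. Ttr (1.46) and Dhrs3 (-0.79) bound the retinoid members, and Alb (5.38) stands apart in the thyroid hormone list.

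The genes whose profile over the 8 libraries was most like that of a retinoid gene were found by the root mean square difference of centred log2 values. Nearest to Ttr were Itih2, which encodes a heavy chain of the inter-alpha-trypsin inhibitor (difference 0.0451, from 1691 ± 75.6 to 4563 ± 150), Cyp2c68 (0.0807) and Ugt2b34 (0.0880), of which the last 2 belong to multigene families whose reads may be split. Nearest to Rbp4 were Etv5 (0.0449), Paqr5 (0.0483) and Cpn1 (0.0533). Nearest to Rdh10 were Armcx4 (0.0290), Elf1 (0.0314) and Tpm1 (0.0406), and nearest to Dhrs3 were Slfn2 (0.0671), Rhob (0.0864) and Adamts5 (0.0918). Nearest to Stra6 were Shroom3 (0.0255), Ambp (0.0399) and Hexim1 (0.0415), and nearest to Aldh1a1 were Ndor1 (0.0112), Acot9 (0.0183) and Eif5b (0.0209). None of these genes was nearest to more than 1 retinoid gene.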

How the data were processed

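Poly-A RNA of 8 AML12 cultures was sequenced. Tools listed by the submitters' processing notes, without a role, are kallisto 0.44.0, DESeq2, sleuth and bcl2fastq 2.19, with the builds GRCh38 and GRCm38. The authors deposited a normalized signal per gene symbol, by its name kallisto estimates normalized with DESeq2, which is neither reads nor scaled to a fixed total. Their transcript annotation is not stated in the sources at hand. The row without a symbol held 0.0481% to 0.0631% of each library and was left out, and no column was left unused. Depth was estimated as the library total divided by the commonest low value, taken as 1 read. Of the values worth at most 20.5 reads, 63.0% to 75.0% were whole to a tolerance of 0.1 read, so no count model was used.

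Genes with a mean of at least 10 were tested with limma 3.58.1 in R 4.3.3 on log2(value + 1), siCasp8 minus Scr, with a trend in the prior variance, two-sided, with Benjamini-Hochberg adjustment over 14154 genes. Fold changes on this scale understate those of low genes. The code was tested on simulated data. The 3 ratios used an exact two-sided permutation test. The 9 genes, the lists and the ratios were chosen with earlier results of these data known. In each list the 3 called genes of lowest adjusted p per direction were named (other list genes were added after their values were seen), and for each called retinoid gene the 3 nearest genes with a mean of at least 50, without predicted genes, clones and pseudogenes. Positions and lengths come from GENCODE M21 (GRCm38), promoters from RefSeq. Of 12 hepatocyte markers 11 were found; the other was not analysed here. Some results of list genes are not reported here. Alternatives were pseudocounts of 0.5 and 5, no filter or a minimum mean of 50, 3 rescalings, no variance trend, the depth covariate, a replicate block and leaving out each library.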

Additional observations from a re-analysis of the deposited data

Results flagged for a closer look

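Dhrs3 in siCasp8 replicate 1 was 1431, while the other 3 siCasp8 libraries were between 1834 and 1868. The gap was 0.922 of the group's range, above Dixon's 95% critical value for 4 libraries. Among 23 groups of 4 tested in this way it was the one library that stood apart, and chance flags about 1 in 20 groups. That library had the lowest estimated depth of the siCasp8 group, 50.5 M reads, and the part of depth in this value was not tested.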

How the results depend on the processing

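Calls and directions of Ttr, Rbp4, Stra6, Rdh10 and Dhrs3 were kept under all 18 alternatives, with log2 fold changes of 1.35 to 1.56, 0.97 to 1.10, -0.48 to -0.34, -0.79 to -0.67 and -0.82 to -0.69. Aldh1a1 kept its direction and lost its call under 5 of 18. Of 42 named genes 33 kept their call throughout, and none reversed. With the depth covariate 2764 genes were called over the table, 6 of the other retinoid genes and 4 of the thyroid hormone genes, in place of 5689, 11 and 7. The cause was not tested. Leaving out 1 library at a time gave a difference of -0.0682 to 0.0653 for the Rdh10 to Dhrs3 log2 ratio and of -0.0257 to 0.0173 percentage points for the Aldh1a1 share, so both changed sign. With the replicate number as a block 6020 genes were called over the table, and 6 retinoid members, 11, 10 and 7 genes of the 3 other lists. Deviations of same-numbered libraries correlated at 0.0785, 0.0442, 0.169 and 0.0554, and 8 of 8 libraries correlated best with their own number, a hint from the data, not the design. For the ratios, sign changes within the 4 numbered pairs, as a replicate block, gave adjusted p of 0.375, 0.875 and 0.875, where 0.375 is the smallest 1 ratio alone can reach, so none could pass. Crabp2 was at an estimated 1.97 to 9.14 reads, Aldh1a2 at 0 to 3.99 and Aldh1a3 at up to 11.6, which limits their precision.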
